A study of Mus musculus with 3 samples.

Results

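The proteasome genes of mouse regulatory T cells were taken as all protein-coding genes whose symbol begins with Psma, Psmb, Psmc, Psmd, Psme, Psmf or Psmg followed by a digit, and 50 of the 50600 annotated genes (21764 of them protein-coding) met that rule. Total RNA sequencing had been done on primary regulatory T cells, a CD4 lineage marked by the factor Foxp3 that restrains immune responses, from mice of strain C57BL/6NJ. The 3 libraries are biological replicates 2, 3 and 4 of 1 group, so no genotype or treatment could be compared. All 3 carry the same donor identifier, with sex not collected and age unknown. The file headers state that the samples had been activated for 16 hours. The linked differentiation protocol is named for CD4 T cells, and the linked library protocol is named for polyadenylated RNA although the assay is labelled as total RNA. Nothing in the labels says that the libraries came from separate cultures or animals, so the SDs and p-values below describe the spread between these libraries, which may in part be technical.

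The proteasome is the protease that degrades most ubiquitin-tagged proteins. Its barrel, the 20S core particle, has outer rings of alpha subunits, which gate the entrance, and inner rings of beta subunits, of which beta1, beta2 and beta5 cut peptide bonds. A 19S regulatory particle recognises, unfolds and feeds in substrates, whereas the PA28 and PA200 activators open the barrel without using ATP. In lymphocytes and under interferon, newly made barrels can take up the immunoproteasome subunits beta1i, beta2i and beta5i in place of the standard catalytic subunits, which shifts the peptides cut for display on MHC class I molecules.

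Replicates 2, 3 and 4 held 41222058, 47665060 and 99097524 assigned fragments. Fragments of the 50 genes made up 0.906% (95% Wilson interval 0.903 to 0.909), 0.905% (0.902 to 0.908) and 0.883% (0.881 to 0.885) of them, intervals that cover counting error only. Foxp3 stood at 76.4, 82.3 and 83.9 TPM, and all 6 T cell markers examined were at 1 TPM or more in every library. TPM is a level per gene length, scaled to the same sum in each library. Markers of other cells were low: 4 of 4 genes of CD8 T and NK cells (summed 0.403 to 0.554 TPM), 4 of 5 myeloid genes (3.02 to 5.33, with Lyz2 and Csf1r at 0), 3 of 4 B cell genes (2.79 to 2.90) and 2 of 4 stromal or epithelial genes (5.31 to 6.68) were under 1 TPM in every library. The libraries differed in sex-linked genes, with Xist at 126, 0.331 and 36.1 TPM and the Y-linked gene Ddx3y at 0.126, 39.3 and 28.4 TPM, so replicates 2 and 3 are not repeat runs of the same RNA. The part that these differences play in the results below was not tested. In bulk RNA, a smaller share of cells with a transcript and less of it per cell cannot be told apart.

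Almost every proteasome gene was expressed. Of the 50 genes, 48 (96%) reached 1 TPM in every library, against 45.6% of protein-coding genes, and 47 (94%) reached 10 TPM, against 34.8%. At 100 TPM, a level that 8.80% of protein-coding genes reached, there were 37 of 50 (74%). The median protein-coding gene at 1 TPM or more in every library stood at 32.8, 31.6 and 32.4 TPM. The genes under 10 TPM were Psmb11, Psma8 and Psme2b, the first and second of which are tissue-restricted forms known from thymic epithelium and testis.

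Levels of different genes depend on the length by which fragments are divided. The deposited length merges all annotated exons of a gene, retained introns included, and ran from 0.324 to 3.28 times the length of the longest protein-coding transcript (median 1.47). The main comparisons between genes are therefore given per merged exon length (TPM) and per coding transcript length (coding-length TPM). The second scale was chosen after the data had been seen. Levels given without a named length are per merged exon length only.

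The 3 immunoproteasome subunits were all expressed, and each was below its standard partner per merged length and per coding length. The gap was widest for beta1i on both scales. The RefSeq promoters of Psmb5, Psmb6 and Psmb9 (GRCm38.p6, 250 bases before to 50 after the RefSeq start, 5′ to 3′) are printed here. Capitals mark matches to TGACNNNGC, the core of antioxidant-type elements to which the factor NFE2L1 binds, in Psmb5 and Psmb6, and to ATTGG, the CCAAT box on the other strand, in Psmb9.
Psmb5, beta5, chr14:54617946-54618245, minus strand: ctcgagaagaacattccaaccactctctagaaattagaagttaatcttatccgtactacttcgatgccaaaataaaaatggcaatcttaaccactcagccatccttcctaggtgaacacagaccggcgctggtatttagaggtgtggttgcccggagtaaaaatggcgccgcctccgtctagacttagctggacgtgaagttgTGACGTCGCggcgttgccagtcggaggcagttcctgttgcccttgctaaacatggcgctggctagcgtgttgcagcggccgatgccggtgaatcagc
Psmb6, beta1, chr11:70525107-70525406, plus strand: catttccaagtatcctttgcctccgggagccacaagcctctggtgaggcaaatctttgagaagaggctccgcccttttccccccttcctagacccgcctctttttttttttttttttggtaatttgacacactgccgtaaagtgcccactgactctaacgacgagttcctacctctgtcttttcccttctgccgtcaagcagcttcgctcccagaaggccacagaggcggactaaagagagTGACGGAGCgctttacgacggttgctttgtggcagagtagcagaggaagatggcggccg
Psmb9, beta1i, chr17:34187281-34187580, minus strand: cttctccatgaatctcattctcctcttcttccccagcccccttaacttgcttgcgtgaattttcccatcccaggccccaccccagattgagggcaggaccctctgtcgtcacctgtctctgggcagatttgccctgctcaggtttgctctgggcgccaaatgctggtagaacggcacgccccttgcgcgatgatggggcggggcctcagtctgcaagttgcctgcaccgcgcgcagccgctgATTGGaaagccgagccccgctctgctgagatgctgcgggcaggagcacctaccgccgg
The match begins at position -47 from the RefSeq start in Psmb5, -9 in Psmb6 and -8 in Psmb9. The whole Psmb9 window lies inside the span counted for that gene (34181988 to 34187764, minus strand). Its RefSeq start therefore differs from the outer end of that span. Each is a match of letters only, and binding was not measured.

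Beta5 is the chymotrypsin-like subunit, which cuts after large hydrophobic residues. Psmb5, the standard form (chromosome 14, 54614120 to 54617995, mm10), stood at 374, 422 and 419 TPM in replicates 2, 3 and 4 (405 ± 26.6, SD, n = 3). Psmb8, the immunoproteasome form (chromosome 17, 34197721 to 34201454), stood at 139.6, 130.4 and 125 TPM (132 ± 7.23). Replicate 2 had the most Psmb8 and the least Psmb5, and the levels of the partners did not overlap. The log2 ratio of Psmb8 to Psmb5 was -1.42, -1.69 and -1.74, a mean of -1.62 ± 0.17, so that Psmb8 was 3.07-fold lower. Per coding length it was 1.83-fold lower (-0.87 ± 0.17), with Psmb8 at 158 ± 8.83 and Psmb5 at 289 ± 18.5 coding-length TPM. In fragments without any length, the partners were level at a log2 ratio of 0.03 ± 0.17: Psmb8 had 4660, 5114 and 10019 fragments and Psmb5 3981, 5264 and 10679. The deposited lengths, 2736 bases for Psmb8 and 871 for Psmb5, set the difference between those scales, and with the median length of coding transcripts the ratio was -0.11 ± 0.17. Psmb8 thus made up 24.6% ± 2.24 of the summed beta5 level per merged length and 35.4% ± 2.74 per coding length. Psmb5 has a processed pseudogene that is 98.9% identical over 88.5% of its transcript (Gm3375, with 13, 44 and 34 fragments), so its count is uncertain.

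Beta1 is the caspase-like subunit, which cuts after acidic residues, and its replacement by beta1i favours peptides with hydrophobic ends. Psmb6, the standard form (chromosome 11, 70525367 to 70527858), stood at 401, 410.2 and 436 TPM (416 ± 18.1). Psmb9, the immunoproteasome form (chromosome 17, 34181988 to 34187764), stood at 22.9, 17.4 and 20.4 TPM (20.3 ± 2.76), the lowest of the 6 catalytic genes in every library. In log2 ratio Psmb9 stood at -4.13, -4.56 and -4.41 against Psmb6, a mean of -4.37 ± 0.22, which is 20.6-fold lower. The gap was 17.9-fold per coding length (-4.16) and 10.6-fold in fragments alone (-3.40), and it was smallest with the median length of coding transcripts, at a log2 ratio of -2.81. Psmb9 made up 4.66% ± 0.686 of the summed beta1 level per merged length and 5.33% ± 0.780 per coding length. It was drawn from 1024, 914 and 2185 fragments.

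Beta2 is the trypsin-like subunit, which cuts after basic residues. Psmb7, the standard form (chromosome 2, 38588036 to 38644087), stood at 181, 172 and 175 TPM (176 ± 4.75), the lowest level among the standard beta subunits per merged length. Psmb10, the immunoproteasome form (chromosome 8, 105935735 to 105938444), stood at 70.5, 80.7 and 79.9 TPM (77.0 ± 5.66). Replicate 2 was the lowest for Psmb10 and the highest for Psmb7, and the partners did not overlap. The log2 ratio was -1.36, -1.09 and -1.13, with a mean of -1.20 ± 0.15, so that Psmb10 was 2.29-fold lower. Here the coding length widened the gap, to 5.19-fold (-2.38), and fragments alone gave 4.59-fold (-2.20). Psmb10 made up 30.4% ± 2.12 of the summed beta2 level per merged length but 16.2% ± 1.35 per coding length.

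Within the immunoproteasome set the order was Psmb8, Psmb10, Psmb9 in every library, without overlap, per merged and per coding length. Psmb10 lay below Psmb9 only with the median length of coding transcripts, at a log2 ratio of -0.48 ± 0.30. These 3 subunits are known to enter new barrels cooperatively. Their transcripts differed 6.50-fold per merged length and 4.04-fold per coding length. The summed levels of each catalytic position, both forms together, were 447 ± 10.7 for beta5, 734 ± 29.8 for beta1 and 442 ± 5.88 for beta2 in coding-length TPM. Per merged length they were 537, 436 and 253 TPM, so the order of the positions also depends on length. For each of the 3 catalytic pairs and the 3 PA28 pairs described below, all 3 libraries had the same sign per merged length. The exact two-sided sign-flip permutation p was 0.25 for each of the 6 pairs, the smallest that 3 libraries allow, and 0.25 after Benjamini-Hochberg adjustment over the 6.

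**Figure D1:**
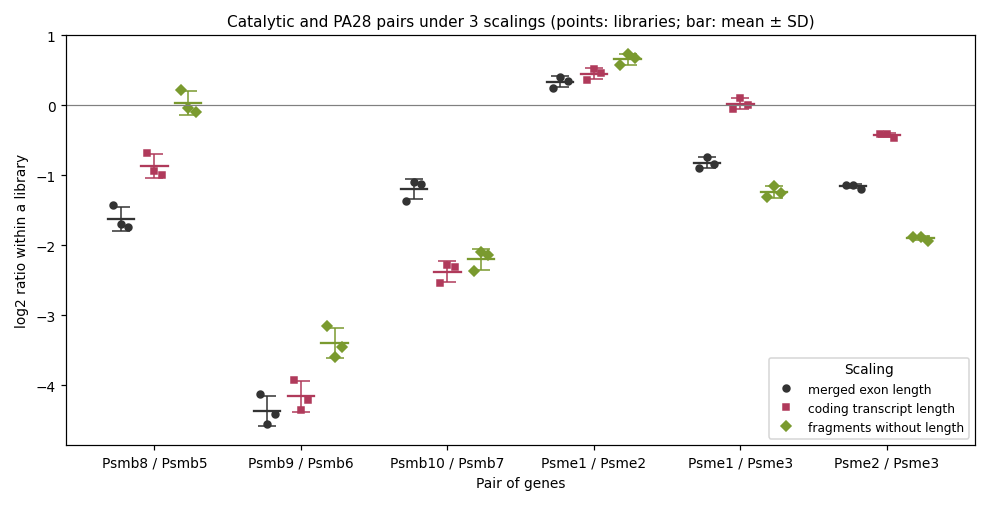
Log2 ratio of 3 immunoproteasome subunits to their standard partners and of the PA28 genes to each other, within each library (points), with the mean and SD over 3 libraries (bars), for TPM per merged exon length, TPM per coding transcript length and fragments without length. Psmb9 lies near -4 against Psmb6 on the first and second scale (-4.37 and -4.16), whereas Psmb8 against Psmb5 moves from -1.62 to 0.03 and Psme1 against Psme3 from -0.82 to 0.02 with the length used.

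Psmb8 and Psmb9 lie in the MHC class II region on either side of Tap1, which with Tap2 encodes the transporter that carries proteasome products into the endoplasmic reticulum. The annotated spans of Psmb9 and Tap1 overlap by 212 bases on opposite strands, which the strand-specific counting tells apart, and Tap1 ends 495 bases before Psmb8. The neighbours did not share a level: Tap1 stood at 66.6, 68.3 and 71.9 TPM and Tap2 at 75.5, 84.8 and 91.5 TPM, between Psmb9 and Psmb8. Nlrc5, the transactivator of MHC class I genes, stood at 33.8, 18.0 and 27.3 TPM, and its libraries fell in the same order as those of Psmb9. Among others, B2m, Psma3, Psma6, Psmc6 and Psme4 had the same order, whereas Tap1, Tap2 and Irf1 did not. With 3 libraries that order is a description only. Irf1, an interferon-induced factor known to act on Psmb9, stood at 20.6, 18.8 and 16.2 TPM. B2m, the light chain of MHC class I, was far higher at 2068, 1644 and 1667 TPM. None of these 5 genes was called different between libraries by the rule given below, which 11.0% of all genes tested met. So few genes say little beside that share. Nlrc5 had the largest ratio between libraries, at 1.81.

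The alpha ring, which is built first and on which the beta subunits assemble, covered a wide range. The median of its 7 standard genes was 274 ± 8.38 TPM (398 ± 12.7 per coding length). Per merged length Psma2 was highest at 867, 782 and 789 TPM and Psma6 next at 733, 671 and 675 TPM, both with replicate 2 on top. Psma3 was lowest at 101, 85.6 and 89.5 TPM. Between them lay Psma5 (285 ± 1.76), Psma4 (274 ± 8.38), Psma7 (269.7 ± 6.79) and Psma1 (208 ± 15.9). The range between the highest and the lowest gene was 8.84-fold per merged length, 6.53-fold per coding length and 2.39-fold in fragments alone. Psma6 was the highest per coding length and in fragments, at 585 ± 30.2 coding-length TPM against 579.5 ± 34.4 for Psma2, a difference within the spread. Psma3 depended on the length used. Its merged length of 3894 bases and its longest coding transcript of 2846 exceed the median of its coding transcripts (859 bases). With that median it stood at 187 TPM, above Psma2 (162) and Psma5 (136). For Psma2 the median of 2132 bases exceeds the 944 bases over which its fragments were counted, so that value is uncertain. Psma4 and Psma5 have near-identical pseudogenes and are uncertain for that reason.

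The standard beta ring was more even than the alpha ring per merged and per coding length, although its range was the wider one in fragments alone. Its 7 genes had a median of 414 ± 11.5 TPM (428 ± 9.93 per coding length) and a 2.91-fold range per merged length, 2.41-fold per coding length and 2.67-fold in fragments alone. Psmb1 was highest at 519, 526 and 490.0 TPM, and Psmb4 stood at 483 ± 6.30, Psmb2 at 430.1 ± 12.1 and Psmb3 at 210.4 ± 8.44 TPM. None of these 4 subunits is catalytic. Psmb4 completes the half-barrel late in its assembly. Per coding length Psmb6, a catalytic subunit, was highest (695 ± 30.2) and Psmb5 lowest (289 ± 18.5). Psmb3 has 3 annotated near-identical copies and is uncertain.

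Per merged and per coding length the regulatory particle stood slightly below the core. Its 17 genes had a median of 272 ± 3.85 TPM against 343 ± 10.5 for the 14 standard core genes, a log2 ratio of -0.33 ± 0.06 per merged length and -0.48 ± 0.04 per coding length. The ratio was below 0 in all 3 libraries on both scales. Its range was 4.93-fold per merged length and 2.76-fold per coding length.

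Among its parts, the ring of 6 ATPases, which unfolds substrates, was highest with a median of 373 ± 11.3 TPM. Psmc5 stood at 583, 568 and 584 TPM and Psmc2, the lowest, at 154, 143 and 146 TPM. Psmc1 (470.0 ± 6.75), Psmc4 (386 ± 14.1), Psmc3 (359 ± 8.55) and Psmc6 (289.8 ± 32.4) lay between. Psmc2 has a merged length of 5031 bases against 1785 for its coding transcript, and per coding length it stood at 296 ± 11.3, with Psmc6 lowest at 207 ± 23.5. The ATPases then fell within a 2.11-fold range, against 3.92-fold per merged length.

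The other base subunits hold the docking sites for ubiquitin and its shuttle proteins. Psmd2 stood at 519, 537 and 543 TPM, Psmd4, a ubiquitin receptor, at 234 ± 4.99 TPM and Psmd1, the lowest, at 158, 149 and 146 TPM. The lid, which removes ubiquitin from bound substrates, had a median of 214 ± 9.45 TPM over 8 genes. Per merged length Psmd7 was highest at 429, 431 and 439.8 TPM and Psmd11 lowest at 124, 113 and 114 TPM. Per coding length Psmd3 was highest (475 ± 18.9) and Psmd11 again lowest (187 ± 10.2), but with the median length of coding transcripts Psmd11 was highest of the lid genes at 469.7 TPM. Psmd14, the deubiquitinating enzyme of the lid, stood at 222, 213 and 197 TPM, below its partner Psmd7 in every library. The other lid genes were Psmd8 (290.8 ± 11.1), Psmd3 (288 ± 11.9), Psmd12 (216 ± 10.5), Psmd6 (210.2 ± 9.60) and Psmd13 (179 ± 2.40). Psmc1, Psmd2 and Psmd11 each have a near-identical copy; that of Psmd11, the transcript A730017L22Rik, drew 312, 335 and 904 fragments.

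The PA28 genes had the highest class median. PA28 alpha and beta, from Psme1 and Psme2, form the mixed ring that interferon induces, whereas PA28 gamma, from Psme3, forms a ring of its own in the nucleus. Psme1 (chromosome 14, 55578123 to 55581529) stood at 483, 514 and 487 TPM and Psme2 (chromosome 14, 55587441 to 55591113) at 406, 388 and 381 TPM. Psme3 (chromosome 11, 101316213 to 101323537) stood at 896, 854 and 870.4 TPM, the highest mean of the 50 genes per merged length, although its libraries overlap those of Psma2. The partners Psme1 and Psme2 differed 1.26-fold (log2 ratio 0.34 ± 0.08), and the ratio was also above 0 per coding length (0.45) and in fragments (0.66).

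Psme3 exceeded Psme2 on every scale, by 2.23-fold per merged length (-1.16 ± 0.03 for Psme2 against Psme3) with -0.43 per coding length and -2.09 with the median length of coding transcripts. Its lead over Psme1 did not hold on every scale. Psme1 was 1.77-fold lower per merged length (-0.82 ± 0.08), but per coding length Psme1 stood at 700.4 ± 22.2 and Psme3 at 689 ± 17.8, a log2 ratio of 0.02 ± 0.08. The PA28 median was above that of the standard core by a log2 ratio of 0.53 ± 0.05 per merged length, 0.72 ± 0.04 per coding length and 1.39 with the median length. Psme2 is 99.4% identical to Psme2b, a gene on chromosome 11 listed at 7.34, 8.42 and 9.12 TPM, so both counts are uncertain.

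Psme4, which encodes the activator PA200, was much lower at 61.6, 49.6 and 56.0 TPM, with replicate 3 lowest. Psmf1, which encodes the inhibitor PI31, stood at 38.2, 44.8 and 41.9 TPM, with replicate 2 lowest. Per coding length they stood at 51.3 ± 5.61 and 50.2 ± 3.87 per coding length.

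Assembly factors, most of which leave the finished particle, had lower medians than the subunit classes they help to build. The 4 core chaperones had a median of 131 ± 4.26 TPM: Psmg2 stood at 240.2, 223 and 208 TPM, Psmg1 at 154, 139.6 and 136, Psmg4 at 116, 124 and 117, and Psmg3 at 43.7, 46.4 and 50.6. These act as the pairs Psmg1 with Psmg2 and Psmg3 with Psmg4, and in each pair the members did not overlap between libraries per merged length. Per coding length the second pair changed order, with Psmg3 at 109.5 ± 8.03 and Psmg4 at 84.9 ± 3.18. The 3 chaperones of the regulatory particle base had a median of 32.6 ± 1.37 TPM, with Psmd10 at 68.0, 57.9 and 57.2, Psmd5 at 33.2, 33.6 and 31.0 and Psmd9 at 18.6, 20.5 and 20.7. Their 3.07-fold range closed to 1.17-fold per coding length.

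Psmb11, Psma8 and Psmc3ip stand apart from the rest. Psmb11, the thymus form of beta5, had 0, 0 and 2 fragments, below the 3 fragments (0.0579 TPM in the shallowest library) taken as the floor. Psma8, the testis form of Psma7, had 17, 7 and 18 fragments, or 0.823, 0.288 and 0.364 TPM. Psmc3ip, at 45.0, 42.1 and 48.2 TPM, matches the symbol rule but encodes a cofactor of meiotic recombination and not a proteasome subunit. These genes and Psme2b were kept out of the class medians.

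**Figure D2:**
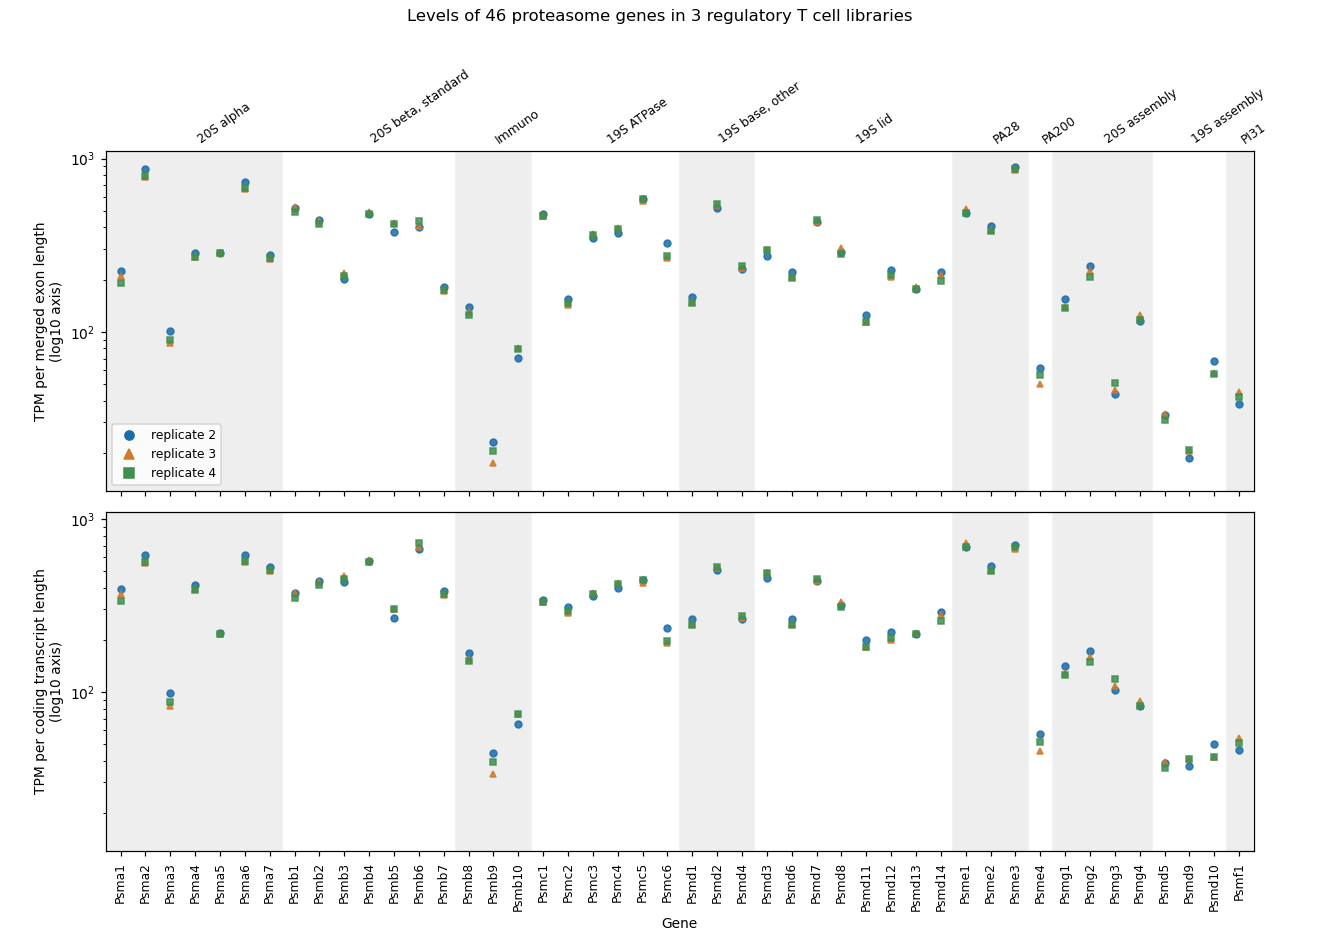
Levels of 46 proteasome genes in each of 3 libraries (points), as TPM per merged exon length (upper panel) and per coding transcript length (lower panel) on log10 axes, with genes grouped by class. Psmb9 lies lowest among the core subunits in both panels (20.3 and 39.1 on average), and Psme3 lies at or near the top of both. Psme1 has the highest mean in the lower panel only.

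**Figure D3:**
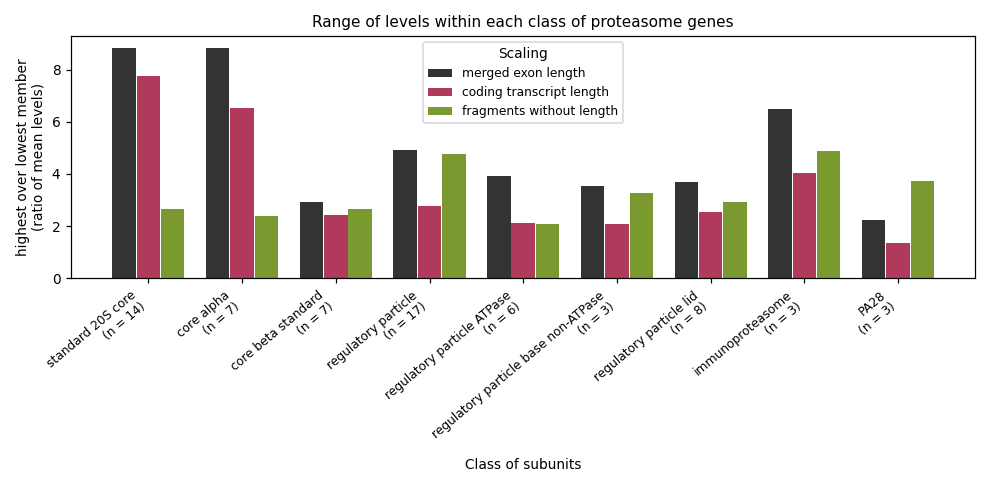
Ratio of the highest to the lowest member of each class, from mean levels over 3 libraries, on 3 scales (bars from 0, no error bars since each is a ratio of means; n is the number of genes in a class). The alpha ring has an 8.84-fold range per merged length and 2.39-fold in fragments alone, and the regulatory particle narrows from 4.93-fold to 2.76-fold per coding length.

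Ordered by mean TPM, the 46 genes that remain make 45 neighbouring pairs, and in 29 of them the libraries overlap, so much of the fine order is not separated by the spread. By class the order per merged length was PA28, standard core, regulatory particle, core assembly, immunoproteasome and base assembly. Against the median of the 3 standard catalytic genes, the immunoproteasome median stood at a log2 ratio of -2.41, -2.35 and -2.39 (mean -2.38 ± 0.03), and per coding length at -2.38 ± 0.15. With 3 genes in each class, each median is the level of a single gene. Per merged length the ratio is that of Psmb10 to Psmb5 or Psmb6, and per coding length that of Psmb10 to Psmb7. The equal means thus come from different pairs, and the partner ratios ran from -1.20 to -4.37 per merged length. Against the whole standard core it stood at -2.16 ± 0.07 per merged length and -2.53 ± 0.14 per coding length.

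Few differences between the libraries were large for these genes. Libraries were compared gene by gene with a chi-square test of equal rates, and the rule for a call asked for both an adjusted p under 0.05 (Benjamini-Hochberg over 13688 genes) and a ratio of at least 2 between the highest and the lowest CPM, fragments scaled to the library total. Of 49 proteasome genes tested 1 was called, Psma8, against 11.0% of all genes. All genes tested had fewer fragments in the median, and a ratio of 2 is reached more easily on few fragments. The shares are therefore not at like depth. Psma8 had a ratio of 2.77 with an adjusted p of 0.0242 by the chi-square test, on 7 to 18 fragments, and the call was lost without replicate 2 or without replicate 4. By adjusted p alone 42 of 49 passed (85.7%) against 70.5% of all genes, with a median of 32536 summed fragments against 3943.5 for all genes tested. That test takes fragments as independent and small differences pass it at this depth: outside Psma8 the largest ratio of these 49 genes was 1.28, that of Psmb9.

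Among the 46 genes the SD of log2 CPM over libraries ran from 0.01 for Psmc5 to 0.17 for Psmb9, with a median of 0.07. Psmc6, at 327, 268 and 275 TPM, was next to Psmb9 with 0.14. For the 31 genes of the core and the regulatory particle the median was 0.0523, against 0.0765 over 2234 protein-coding genes in the same range of CPM. Without replicate 2 the median of the 31 genes fell to 0.0249, and the wider set was not recomputed in that way. Over all genes too, replicates 3 and 4 differed least, with a mean chi-square per gene of 17.2 against 26.2 and 25.6 for the other pairs.

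Core genes did not all lean towards the same library. Of the 7 alpha genes 6 were highest in replicate 2, and their median log2 deviation there was 0.09, against -0.01 over all genes tested. Of the 7 standard beta genes 5 were highest in replicate 3, with a median deviation of 0.07 there and -0.04 in replicate 2. The 17 genes of the regulatory particle split as 7, 7 and 3 over replicates 2, 3 and 4. Of the 49 genes tested 23 were highest in replicate 2, 19 in replicate 3 and 7 in replicate 4, and the shares over all genes tested were 34.6%, 33.4% and 32.0%. Other scalings of the libraries moved all genes by -0.02 to 0.01 on the log2 scale. The X-linked gene Psmd10 was highest in replicate 2, the library with the most Xist, at a ratio of 1.17; the part of sex-linked expression in this was not tested.

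**Figure D4:**
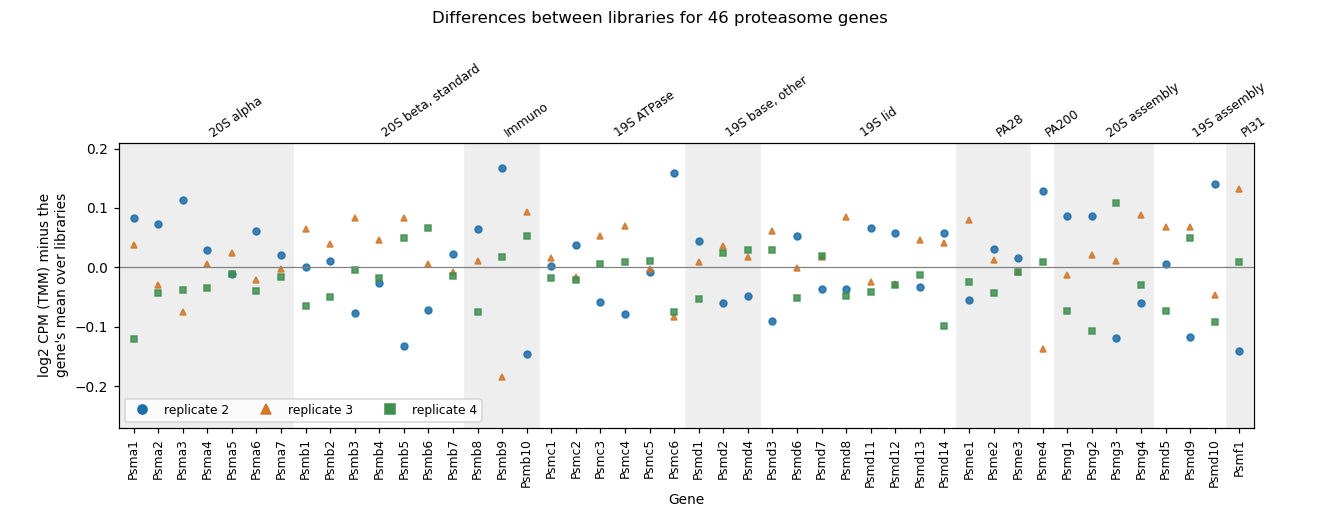
Deviation of each library from the mean log2 CPM of a gene (TMM scaling), for 46 proteasome genes grouped by class. Psmb9 has the widest spread (SD 0.17), most alpha genes have replicate 2 on top, and most standard beta genes have replicate 3 on top.

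Genes that work with the proteasome but fall outside the symbol rule were expressed too, and the partner genes lay below the medians of the core and of the regulatory particle. Of 10 listed partners 9 were matched, all above 1 TPM. Per merged length their median was 80.4 TPM, with Ube3c lowest (35.2, 21.9 and 35.4 TPM) and Txnl1 highest (197 on average). Per coding length Adrm1 (214) was above Txnl1 (140). Adrm1 and Sem1, subunits of the regulatory particle with other names, stood at 94.9, 109 and 107 TPM and at 77.1, 87.4 and 76.7 TPM. Per merged length both were below every regulatory particle gene that the rule took, but per coding length Adrm1 (214 ± 15.3) was above Psmd11, Psmc6 and Psmd12. The maturation factor Pomp, which brings half-barrels together, stood at 88.5, 93.9 and 92.0 TPM. Nfe2l1, the factor that raises subunit genes when proteasome activity falls, stood at 115, 117 and 121 TPM, and Ngly1, which processes it, at 12.6 TPM on average. The 12 genes of ubiquitin and its shuttles had a median of 184 TPM, from Zfand2a at 25.7 to Rps27a at 987. None of the genes on these lists was called between libraries, against 11.0% of all genes tested. Ube3c had the largest ratio, at 1.59.

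A RefSeq promoter was found for 42 of the 50 genes and compared with 27025 promoters of the same length, searching both strands. TGACNNNGC was in 6 of 42 (14.3%) against 12.5% of all promoters: Psmb5, Psmb6, Psmc6, Psmd12, Psmd9 and Psme4. GAAANNGAA, of the kind bound by interferon regulatory factors, was in 6 (14.3%) against 8.57%: Psmb3, Psmb4, Psmd4, Psmd9, Psme1 and Psmg4. CCAAT was in 15 (35.7%) against 37.9%, Psmb9 among them. Of the catalytic genes, the standard forms Psmb5 and Psmb6 held the first motif. None of these 3 motifs was in the windows of Psmb8 and Psmb10. The standard form Psmb7 was not among the 42 promoters, so it was not searched. No test was made of these counts, and the window says nothing of sites outside it.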

How the data were processed

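The deposited files hold raw counts of fragments for each gene, its coordinates (mm10) and its merged exon length. Per the file headers, featureCounts 1.4.6-p4 was run on paired alignments with strand option 2 (reverse-stranded) and the exons of GENCODE mouse M13, with no option for multi-mapped fragments, which that program leaves out by default. Version and settings of the aligner: not given in the sources used here. A gene was taken as having a near-identical copy where a GENCODE M21 transcript matched at least 95% over at least 50% of its length; 9 of the 50 genes have one.

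TPM was computed here as count over merged exon length, scaled to the same sum in each library. Symbols came from GENCODE M21 by unversioned identifier (50376 of 50600 matched). Coding length is the longest M21 protein-coding transcript, at most the deposited length, which that transcript exceeded in 7 of the proteasome genes. The median length of coding transcripts was not capped in this way. No per-sample column was left unused.

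Members and lists were chosen with earlier results of these data known. Values are given for all subunits and, per library, for the catalytic, PA28 and PA200 genes, the extremes of each class, called genes and the genes of largest and smallest spread; of outside genes, a few per list and its extremes. As there is 1 group, edgeR's quasi-likelihood test could not be used. Libraries were set against each other with a chi-square test (2 degrees of freedom, 30 or more summed fragments) on TMM library sizes (edgeR 4.0.16, R 4.3.3). Pairs of genes were compared by an exact sign-flip permutation test over 3 libraries. The chi-square test was checked on counts simulated with sampling error only. That check does not give the rate of false calls in these libraries. Log2 CPM used a prior of 0.5. The mean chi-square per gene was 26.2, 25.6 and 17.2 between pairs of libraries, so none agreed within sampling noise. Alternatives were other lengths, a pseudocount of 1, DESeq2 1.42.0 size factors, other thresholds and leaving out each library. Software was matplotlib 3.10.9, scipy 1.17.1, pandas 2.3.3 and numpy 2.4.6 under Python 3.11.15. Protein sequences were not used here. The values of 1 listed gene and 1 planned promoter motif are not reported here.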

Additional observations from a re-analysis of the deposited data

How the results depend on the processing

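Of 8 gene pairs recomputed under each alternative, 3 turned direction with the length used: Psmb8 against Psmb5 was 0.0312 (log2) in CPM without length, Psme1 against Psme3 was 0.0227 with the longest coding transcript, capped at the deposited length or not, and Psmb10 against Psmb9 was -0.48 with the median coding length. The other 5 pairs kept their direction. Psmg3 against Psmg4 and the summed beta5 against beta1 levels, compared per merged and per coding length only, also changed order between these. Class ratios kept their sign under the alternatives run for them. Fragments without length were not among these, and on that scale the middle of the regulatory particle lay above that of the core. Immunoproteasome against standard catalytic genes was -1.90 with the median coding length, -2.42 with 200 bases taken off and -3.04 with the 4 set-aside genes kept. Regulatory particle against core was, in the same order, -0.18, -0.43 and -0.17, and -0.48 with the capped coding length. PA28 against core was 1.39, 0.44 and 0.64, with 0.72 capped and 0.82 uncapped. Called members numbered 42 by adjusted p of the chi-square test alone, against 1, and 0 to 1 when a library was left out. The median SD of the core and regulatory particle was 0.0249 to 0.0546 with a library left out. The 48 and 47 genes at 1 and 10 TPM and the 37 at 100 TPM stayed within 1.5-fold. The capped coding length and the order of the immunoproteasome genes were added after the data had been seen. Counting error limits Psma8, Psmb11 and Psme2b most, which have the fewest fragments. No paired analysis was possible because there is 1 group.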
